A study of Mus musculus with 14 samples.

Results

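The 42 genes described here encode proteins that cells use to divide. 30 are mitotic genes, most of which act from mitotic entry to the separation of the daughter cells. 12 are S-phase genes, which copy DNA, supply its building blocks or, for the cyclins E, start S phase. All 42 were chosen by gene symbol from a list of cell cycle genes and were found among the 55291 rows of the count tables. All 42 passed the filter on low counts that left 22150 genes to test. The dentate gyrus, the granule cell field of the hippocampus, was cut out of mouse slices that had been cultured with the hippocampus still joined to its entorhinal cortex, and each library came from 1 dentate gyrus. 6 libraries came from C57BL/6J cultures with an intact gene for the amyloid precursor protein (APP+/+, called wildtype) and 8 from APP-deficient cultures (APP-/-, called APPko). Both groups were prepared at postnatal day 4 to 5, were kept in medium with horse serum for at least 18 days, and received no treatment that the labels name. The comparison asked how transcript levels in this tissue differ when APP is missing.

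A dividing cell duplicates its DNA in S phase and shares it out in mitosis, and different genes are transcribed for each step. S-phase genes are switched on around the G1/S transition by E2F factors, while mitotic genes peak later, under the MuvB complex with B-MYB and FOXM1, often through a promoter element called the cell cycle genes homology region (CHR) near CCAAT boxes, the binding sites of NF-Y. The dentate gyrus keeps neural stem cells that make new granule cells after birth, and glial precursors and microglia can also divide. A whole-tissue library can therefore hold these transcripts from a minority of cells, and which cells carry them was not measured.

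Promoters of 5 of the genes are shown because they show the motifs that are counted in both sets below. Sequences are from RefSeq (GRCm38.p6), run from 250 bases before to 50 bases after the annotated start, and are written 5′ to 3′ on the strand of the gene. Capitals mark matches on either strand to the CHR (TTTGAA or TTCGAA), the CCAAT box (CCAAT) and the E2F motif (TTTGGCGC, TTTCCCGC, TTTGCCGC or TTTCGCGC), so that reverse matches read TTCAAA for the first and ATTGG for the second. Top2a (chr11:99024140-99024439, minus strand), Mki67 (chr7:135716330-135716629, minus strand) and Cenpe (chr3:135212313-135212612, plus strand) are the mitotic genes whose level passed the test between genotypes. Rrm1 (chr7:102441445-102441744, plus strand) is the S-phase gene with the smallest p, and Mcm6 (chr1:128359656-128359955, minus strand) was chosen after its values were seen, for its E2F matches.
Top2a: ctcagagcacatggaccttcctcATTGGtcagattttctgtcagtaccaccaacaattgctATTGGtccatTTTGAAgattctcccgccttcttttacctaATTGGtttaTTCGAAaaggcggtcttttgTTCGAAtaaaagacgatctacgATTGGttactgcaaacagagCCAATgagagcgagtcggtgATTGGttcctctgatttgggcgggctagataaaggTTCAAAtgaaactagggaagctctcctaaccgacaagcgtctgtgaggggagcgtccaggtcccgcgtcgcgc
Mki67: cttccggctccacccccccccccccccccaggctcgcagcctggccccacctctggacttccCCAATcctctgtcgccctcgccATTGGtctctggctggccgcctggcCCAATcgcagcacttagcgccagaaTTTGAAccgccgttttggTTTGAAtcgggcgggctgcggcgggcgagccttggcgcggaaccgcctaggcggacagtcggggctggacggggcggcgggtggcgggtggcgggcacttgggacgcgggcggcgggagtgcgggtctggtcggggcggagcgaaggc
Cenpe: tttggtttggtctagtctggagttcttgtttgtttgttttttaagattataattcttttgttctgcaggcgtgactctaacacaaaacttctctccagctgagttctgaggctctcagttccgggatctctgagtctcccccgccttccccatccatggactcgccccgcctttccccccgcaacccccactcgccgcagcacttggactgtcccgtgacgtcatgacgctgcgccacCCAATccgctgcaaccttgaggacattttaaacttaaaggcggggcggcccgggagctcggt
Rrm1: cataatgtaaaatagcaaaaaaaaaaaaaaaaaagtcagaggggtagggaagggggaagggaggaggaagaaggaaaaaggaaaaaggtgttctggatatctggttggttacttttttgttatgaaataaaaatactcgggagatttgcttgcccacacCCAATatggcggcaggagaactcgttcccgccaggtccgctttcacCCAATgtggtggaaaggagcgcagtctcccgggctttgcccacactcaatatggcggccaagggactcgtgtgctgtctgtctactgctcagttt
Mcm6: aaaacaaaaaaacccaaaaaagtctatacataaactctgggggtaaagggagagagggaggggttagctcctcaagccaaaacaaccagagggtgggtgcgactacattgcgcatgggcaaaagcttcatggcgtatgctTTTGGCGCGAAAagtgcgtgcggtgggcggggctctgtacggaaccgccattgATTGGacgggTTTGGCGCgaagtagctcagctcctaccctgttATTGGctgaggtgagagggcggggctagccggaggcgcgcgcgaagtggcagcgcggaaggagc

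The Top2a window held 4 CHR matches and 6 CCAAT boxes, that of Mki67 held 2 and 3, and that of Cenpe held 1 CCAAT box and no CHR match. The Rrm1 window held 2 CCAAT boxes, and that of Mcm6 held 2 CCAAT boxes and 3 E2F matches, of which 2 overlap in the run TTTGGCGCGAAA. A window was found for 34 of the 42 genes, 36 windows in all. Mcm7 and Prc1 have 2 windows each. Those of Prc1 overlap and hold the same CHR match and CCAAT box, so that the 25 mitotic windows below are of 24 genes. Ccna2, Aurkb, Tpx2, Kif20a, Foxm1, Smc4, Mcm4 and Ccne2 had no entry. A CHR match was present in 20 of 25 mitotic windows (80%), in 2 of 11 S-phase windows (18.2%) and in 19.2% of all 32851 windows of the same length. Mitotic windows with a CHR match and at least 2 CCAAT boxes numbered 12 of 25 (48%), against 1 of 11 S-phase windows (9.09%) and 2.31% of all windows. An E2F match stood in 1 of 25 mitotic windows (4%), in 4 of 11 S-phase windows (36.4%) and in 2.26% of all windows. The 11 S-phase windows are of 10 genes, and these 4 were all of Mcm genes: Mcm3, Mcm5, Mcm6 and 1 of the 2 Mcm7 windows. Those of Mcm2, Pcna, Rrm1, Rrm2, Tyms and Ccne1 held no E2F match. CCAAT boxes were frequent in both sets, at 84% of mitotic and 81.8% of S-phase windows against 37.4% of all windows. Matches overlapped each other, of the same or another motif, in 5 of the 36 windows (Mcm5, Mcm6, Mcm7, Cdca8 and Ube2c). These are letter matches and not measured binding, and a window without a match says only that these letters are not in it.

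Depth ran from 16686909 to 31031126 counts per library. App, the targeted gene, was measured in CPM, that is, counts scaled to a common library size with TMM factors. The wildtype mean was 809 ± 131 CPM and the APPko mean 214 ± 17.9 CPM (± is the SD over libraries, n = 6 and n = 8 here and below), and the groups did not overlap. The 8 granule cell markers summed to 686 to 1300 CPM in wildtype and 519 to 895 CPM in APPko, with Prox1, the defining factor, at 158 ± 40.5 and 151 ± 33.4 CPM and 3 of the 8 called lower. Wildtype libraries 2 and 3 stood apart in scaling, with TMM factors of 0.852 and 0.847 against 0.976 to 1.091 in the other 12. The column headers end in f or m, which matched Xist and the Y-linked genes in all 14 libraries. 3 wildtype and 7 APPko libraries carry f, and 3 wildtype libraries and APPko library 8 carry m. The labels name the libraries biological replicates without tying cultures to animals, and each p-value below therefore measures spread among cultures.

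Transcripts of the mitotic machinery were lower in APPko for 3 genes. Top2a, the topoisomerase that untangles sister chromatids, fell 1.71-fold, Mki67, which coats mitotic chromosomes and is the usual proliferation marker, fell 1.53-fold, and Cenpe, the kinesin that brings chromosomes to the spindle equator, fell 1.5-fold. None of the 12 S-phase genes passed, at an edgeR adjusted p threshold of 0.05, although 4 had an unadjusted p under 0.05, all lower, and DESeq2 called 1 (Rrm1), where it called 4.64% of all genes lower. Among all genes tested, 1.41% were called lower in APPko and 0.944% higher, 2.35% in all. No gene of the 42 was called higher, none had an unadjusted p under 0.05 in that direction, and DESeq2 called none higher. The count of 3 was 0 with wildtype library 2 or 3 or APPko library 1, 2, 4, 5, 6 or 7 left out. In those fits 0.0733% to 0.248% of all genes were called lower. The count was 1 without APPko library 3 (0.783% of all genes) and 5 without wildtype library 4 (3.1%). It was also 0 with a trend over GC content removed (0.632%) and 1 with no filter on low counts (0.344%).

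Top2a (ENSMUSG00000020914.17, chromosome 11, 98992943 to 99024189, GRCm38) was at 19.4, 20.5, 18.2, 15.5, 10.4 and 11.9 CPM in wildtype libraries 1 to 6. In APPko libraries 1 to 8 it was at 6.36, 10.1, 10.2, 8.85, 6.31, 8.31, 10.9 and 13.8 CPM. The wildtype f libraries were the highest of all, and the groups overlapped because APPko library 8 lay above wildtype libraries 5 and 6 and APPko library 7 above wildtype library 5. The means were 16.0 ± 4.14 and 9.36 ± 2.49 CPM (log2 change -0.77, SE 0.19, edgeR adjusted p = 0.041).

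Mki67 (ENSMUSG00000031004.8, chromosome 7, 135689784 to 135716361) was at 13.9, 17.9, 13.0, 13.0, 13.7 and 9.35 CPM in wildtype libraries 1 to 6. Its level in APPko libraries 1 to 8 was 8.31, 9.22, 9.04, 7.93, 8.14, 6.29, 9.50 and 12.3 CPM. Wildtype library 6 lay within the APPko range, and APPko library 8 was again the highest of its group. The means were 13.5 ± 2.73 and 8.84 ± 1.72 CPM (log2 change -0.61, SE 0.15, edgeR adjusted p = 0.044).

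Cenpe (ENSMUSG00000045328.11, chromosome 3, 135212537 to 135273611) was at 6.83, 9.60, 8.67, 9.13, 6.76 and 6.71 CPM in wildtype libraries 1 to 6. APPko libraries 1 to 8 were at 4.65, 5.87, 5.44, 5.37, 4.48, 5.32, 5.33 and 5.89 CPM. Cenpe was the 1 gene of the 42 whose groups did not overlap, a pattern with APPko below wildtype that 0.609% of all tested genes showed. The means were 7.95 ± 1.33 and 5.29 ± 0.506 CPM (log2 change -0.59, SE 0.13, edgeR adjusted p = 0.031).

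**Figure D1:**
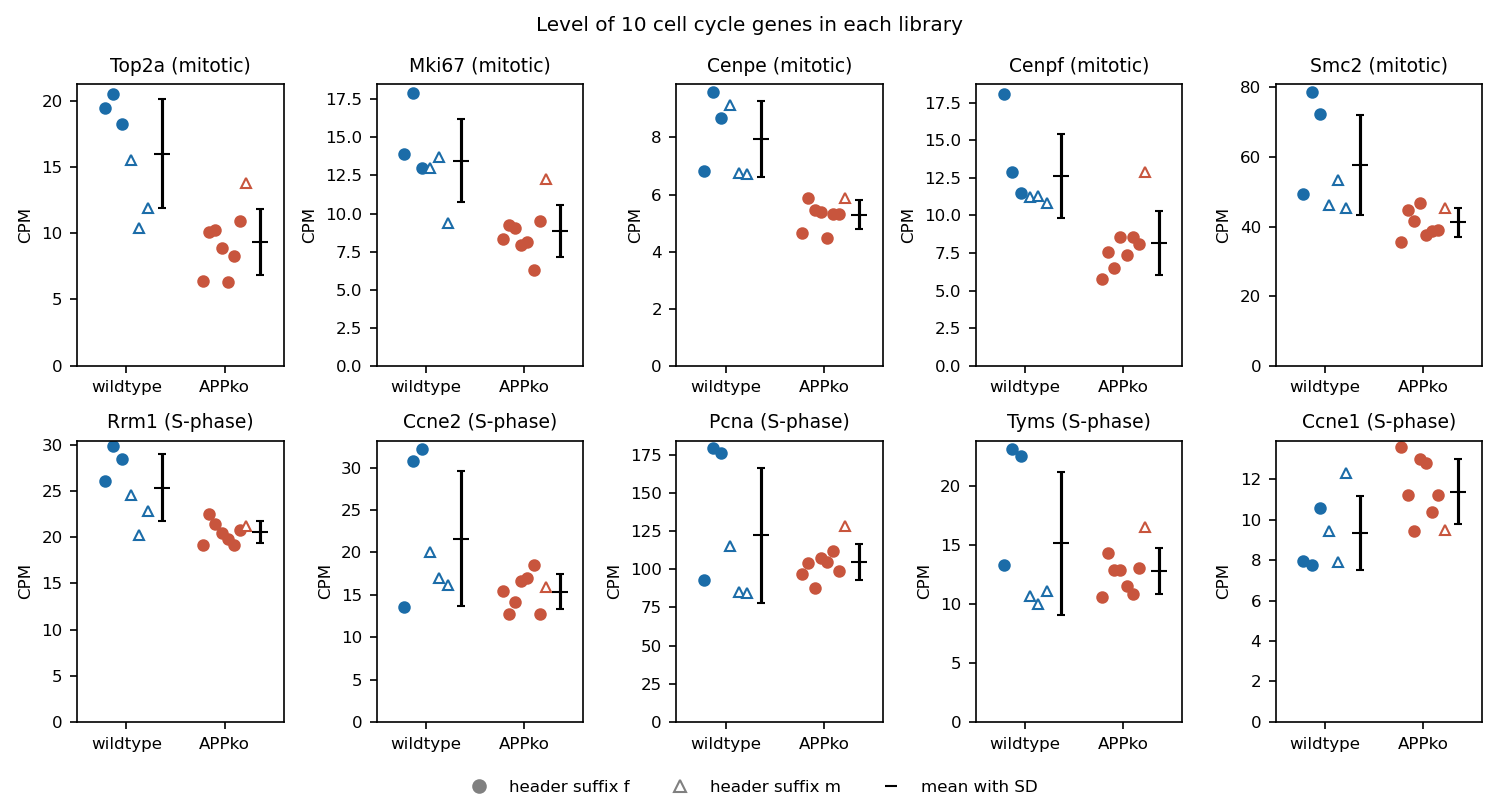
Level of 10 of the genes in each library, in CPM scaled by TMM (vertical axis), with wildtype and APPko side by side; circles are libraries with header suffix f, triangles those with m, and the bar gives the mean with its SD over 6 or 8 libraries. Cenpe is the panel without overlap between groups, and in the Pcna, Tyms and Ccne2 panels 2 wildtype libraries (2 and 3) lie above all others.

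The other genes of mitotic chromatin encode condensin, the ring complex that compacts chromosomes. Smc2, a core ATPase subunit, was at 45.4, 51.5 and 78.7 CPM in wildtype and 35.5, 40.4 and 46.7 CPM in APPko (lowest, median and highest). Its means were 57.6 ± 14.4 and 41.2 ± 4.10 CPM, with a log2 change of -0.48 just short of the threshold (SE 0.13, edgeR adjusted p = 0.052). The groups overlapped only at their edges: wildtype libraries 4 and 6 lay under the highest APPko library. Smc4, its partner subunit, averaged 40.2 ± 6.84 CPM in wildtype against 35.3 ± 4.78 CPM in APPko, with a log2 change of -0.19 (95% interval -0.43 to 0.06, edgeR adjusted p = 0.39). Lowest, median and highest Smc4 levels were 32.7, 39.1 and 51.6 CPM in wildtype and 30.0, 35.2 and 41.8 CPM in APPko, and the ranges overlapped between 32.7 and 41.8 CPM.

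All 6 genes of the kinetochore and the spindle checkpoint, which holds anaphase back until chromosomes are attached, had negative log2 changes (-0.62 to -0.37, median -0.50), and Cenpe alone passed. Cenpf, a large protein of the outer kinetochore, was at 10.8, 11.4 and 18.1 CPM in wildtype and 5.75, 7.85 and 12.9 CPM in APPko (lowest, median and highest). The 7 APPko f libraries reached at most 8.59 CPM and all lay under every wildtype library, while APPko library 8 lay at 12.9 CPM beside wildtype library 2. The log2 change was -0.62 (SE 0.17, edgeR adjusted p = 0.055). Bub1, Bub1b, Mad2l1 and Ttk, kinases and a Mad protein of the checkpoint, ran from -0.56 to -0.37 with edgeR adjusted p of 0.24 to 0.38.

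The chromosomal passenger complex corrects faulty attachments and starts cytokinesis. Its genes Cdca8 (borealin), Birc5 (survivin) and Aurkb (the kinase) had log2 changes of -0.34, -0.22 and -0.09, and none passed. Of 9 genes of the spindle and midzone, 6 had negative changes and none passed. The values ran from -0.69 in Anln, the actin-binding anillin of the contractile ring, to 0.31 in Aurka, the centrosomal kinase. Aurka was at 1.10, 1.68 and 2.43 CPM in wildtype and 1.62, 2.02 and 2.58 CPM in APPko (lowest, median and highest). These ranges overlapped for most libraries (95% interval -0.10 to 0.73, edgeR adjusted p = 0.39). Its activator Tpx2 had -0.30 (95% interval -0.58 to -0.02, edgeR adjusted p = 0.21), so the kinase and the protein that targets it to the spindle had estimates of opposite sign, neither past the threshold.

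The 8 genes of mitotic entry and exit include the mitotic kinase Cdk1, its cyclins and the anaphase-promoting complex's activator Cdc20. 6 of them had negative changes and none passed. Cyclins Ccnb1, Ccnb2 and Ccna2 were at -0.66, -0.47 and -0.37, while Cdk1 itself was at -0.17 (95% interval -0.64 to 0.29). Foxm1, a transcription factor that drives mitotic genes, was at 1.04 ± 0.429 and 1.05 ± 0.522 CPM, with a log2 change of 0.00 and a 95% interval of -0.69 to 0.68. Plk1, the polo-like kinase of mitotic entry, had counts from 2 to 22 per library, and its 95% interval of -0.78 to 0.99 includes a change of the size seen in Top2a.

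Over the 30 mitotic genes the median log2 change was -0.36, and 25 of 30 were negative, against a median of -0.01 and 51.7% negative among all tested genes. 12 of 30 had an unadjusted p under 0.05, all lower, where 11.4% of all genes did so in that direction. Over the 12 S-phase genes the median was -0.25 with 9 of 12 negative, and 4 had an unadjusted p under 0.05. The genes of each set can be transcribed in the same cells and are not independent measurements. In bulk tissue, fewer dividing cells, less RNA per dividing cell and a change in cells that do not divide cannot be told apart.

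**Figure D2:**
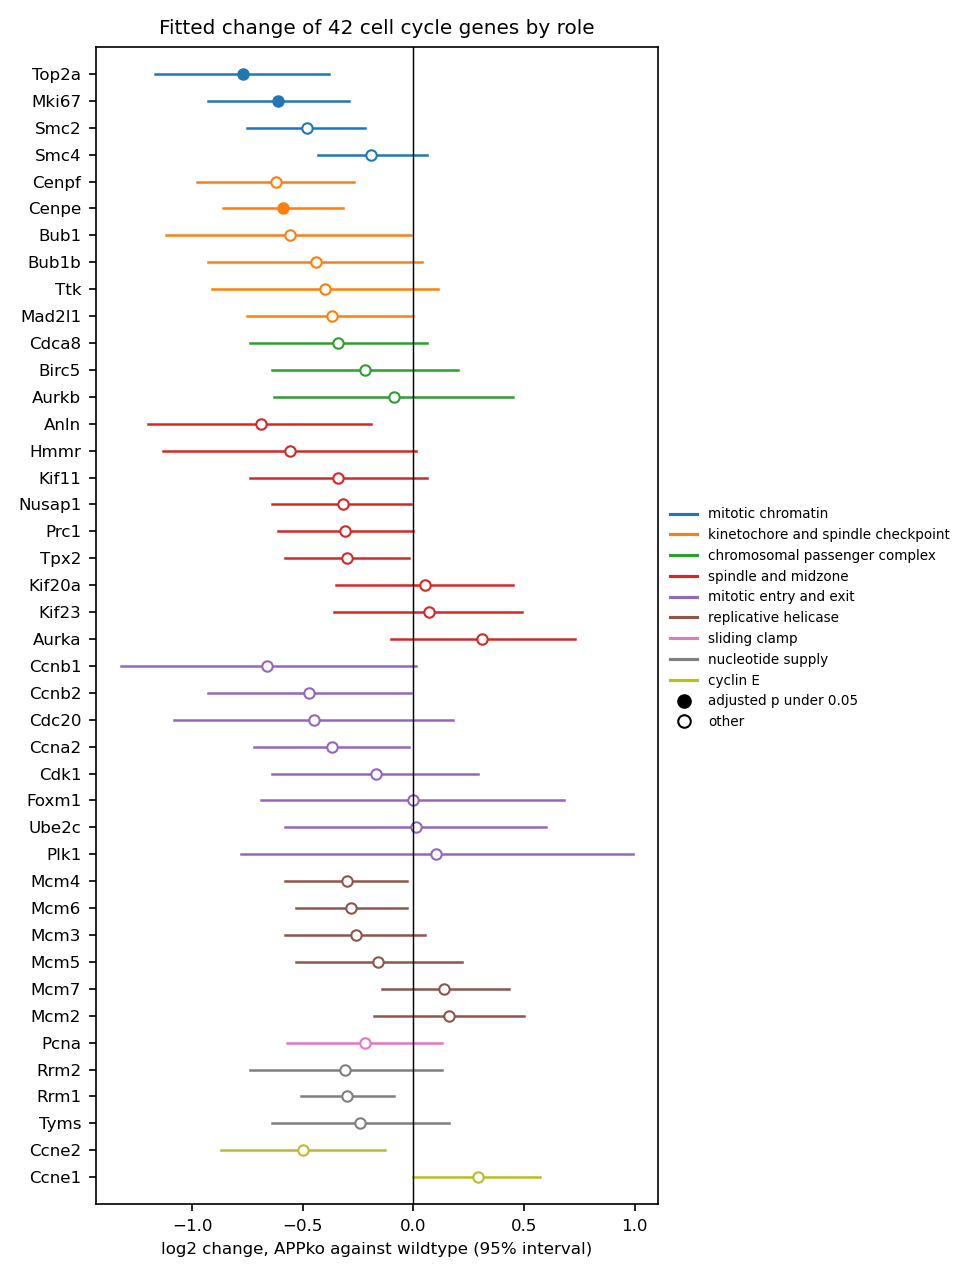
Fitted log2 change of APPko against wildtype (horizontal axis) for each of the 42 genes, with its 95% interval as a line, coloured by role; filled points passed an adjusted p of 0.05. Filled points are Top2a, Mki67 and Cenpe, and the lower 12 rows, the S-phase genes, hold none.

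The summed level of the 12 S-phase genes ran from 206 to 349 CPM in wildtype and from 209 to 250 CPM in APPko. Wildtype libraries 2 and 3 were the highest, at 347 and 349 CPM. Pcna alone gave 179 and 176 CPM of these, so the sum largely follows that gene. The replicative helicase, a ring of 6 Mcm proteins that opens the DNA, had 4 of 6 subunit genes negative and a median of -0.21. Mcm4 was at 13.8, 23, 19.0, 15.0, 13.4 and 13.5 CPM in wildtype libraries 1 to 6, against 11.6, 13.2 and 14.7 CPM (lowest, median and highest) in APPko. Only wildtype libraries 2, 3 and 4 lay above the APPko range (log2 change -0.30, SE 0.13, edgeR adjusted p = 0.19), and the change was -0.18 without wildtype library 2. Mcm6 was at -0.28 (95% interval -0.53 to -0.03, edgeR adjusted p = 0.19), and Mcm3 and Mcm5 were at -0.26 and -0.16. Mcm2 and Mcm7 had positive estimates of 0.16 and 0.14, with intervals of -0.18 to 0.50 and -0.14 to 0.43.

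Pcna, the sliding clamp that holds the polymerase on DNA, had the highest level per length of the 42 genes. It was at 93.1, 179, 176, 115, 84.9 and 84.5 CPM in wildtype libraries 1 to 6, and at 87.9, 105 and 128 CPM (lowest, median and highest) in APPko. Wildtype libraries 2 and 3 alone lay above the APPko range, and the medians of both groups were nearly equal, at 104 and 105 CPM. The log2 change was -0.22 (95% interval -0.57 to 0.13, edgeR adjusted p = 0.49), and 0.16 without wildtype libraries 2 and 3.

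The genes that supply deoxynucleotides were at -0.31 (Rrm2), -0.30 (Rrm1) and -0.24 (Tyms). Rrm1, the large subunit of ribonucleotide reductase, was at 26.1, 29.9, 28.5, 24.6, 20.2 and 22.8 CPM in wildtype libraries 1 to 6 and at 19.2, 20.6 and 22.5 CPM (lowest, median and highest) in APPko. Wildtype library 5 alone lay within the APPko range. The means were 25.3 ± 3.60 and 20.6 ± 1.16 CPM, with a 95% interval of the log2 change of -0.51 to -0.09 and an edgeR adjusted p of 0.098.

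The cyclins E, which with Cdk2 start S phase, had estimates of opposite sign. Ccne2 was at 13.6, 30.8, 32.2, 20.1, 17.0 and 16.1 CPM in wildtype libraries 1 to 6 and at 12.7, 15.7 and 18.5 CPM (lowest, median and highest) in APPko. Wildtype libraries 2, 3 and 4 lay above the APPko range and libraries 1, 5 and 6 within it (log2 change -0.50, SE 0.18, edgeR adjusted p = 0.12). Ccne1 was at 7.76, 8.71 and 12.3 CPM in wildtype and 9.44, 11.2 and 13.6 CPM in APPko, a log2 change of 0.29 with a 95% interval of 0.00 to 0.57 and an edgeR adjusted p of 0.25. 17.4% of the exon bases of Ccne2 overlap Ints8 on the opposite strand, and whether the counting used strand is not given in the sources used here. This limit also holds for Kif20a (29.3%, with Cdc23), Ube2c (22.8%, with Tnnc2), Ccna2 (12.5%, with Exosc9) and Prc1 (11.1%, with Rccd1). Ccnb2, Pcna, Ccnb1 and Tyms have named pseudogene copies with rows of their own. Over all libraries Ccnb2-ps averaged 4.1 CPM, above Ccnb2 itself at 2.66 CPM. Pcna-ps2 averaged 3.2 CPM against 112 CPM for Pcna, and the copies of Ccnb1 and Tyms 0.018 and 0.066 CPM. How reads shared by a gene and its copy were assigned is not known.

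Levels between genes were compared as wildtype CPM per kilobase of exon. Pcna led with 50.8 ± 18.5, followed by Smc2 (10.5 ± 2.62), Smc4 (7.72 ± 1.31), Ccne2 (6.19 ± 2.27) and Mcm6 (4.90 ± 0.996). Pcna stood apart from the rest, while the ranges of 1 SD around the mean overlapped between neighbours from Smc2 to Mcm6. 8 of the 10 highest genes were S-phase genes, and the lowest levels were those of the mitotic regulators Plk1 (0.253 ± 0.153), Kif23 (0.247 ± 0.0616) and Foxm1 (0.181 ± 0.0745), whose ranges of 1 SD overlapped.

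**Figure D3:**
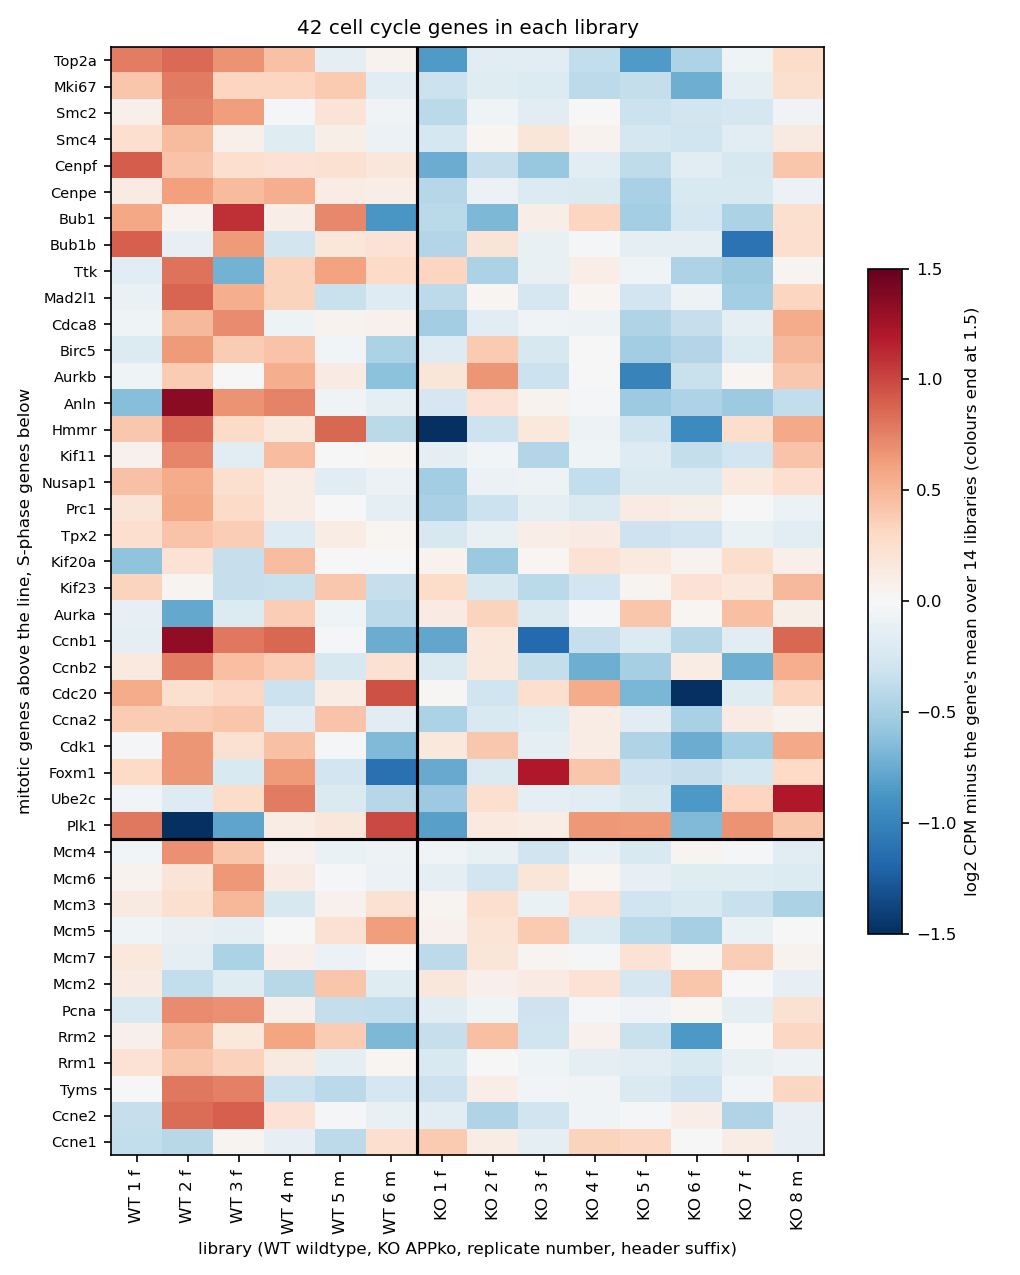
Each cell is the log2 CPM of 1 gene in 1 library minus that gene's mean over the 14 libraries, with red above and blue below the mean and the colours ending at 1.5; rows are the 42 genes by role, with mitotic genes above the horizontal line, and the vertical line parts wildtype from APPko. The columns of wildtype libraries 1 to 4 are red in most rows of both blocks (19, 26, 23 and 22 of 30 mitotic genes, 7, 8, 9 and 8 of 12 S-phase genes). That of APPko library 8 is red in much of the mitotic block.

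Libraries were then described by the median over each set of the log2 level minus the gene's mean over all 14. The mitotic level was 0.17, 0.57, 0.30, 0.33, 0.07 and -0.12 in wildtype libraries 1 to 6, and -0.40, -0.09, -0.14, -0.02, -0.30, -0.34, -0.17 and 0.29 in APPko libraries 1 to 8. 7 of 8 APPko libraries thus lay under 5 of 6 wildtype libraries, and APPko library 8, the m library, was the exception. The S-phase level was 0.03, 0.33, 0.38, 0.07, -0.06 and -0.09 in wildtype and ran from -0.19 to 0.09 in APPko. Wildtype libraries 2 and 3 were the only ones above 0.09, and the other 4 wildtype libraries lay within the APPko range.

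APPko library 8 was the highest of the 8 APPko libraries for 16 of 30 mitotic genes but for 2 of 12 S-phase genes, and for 15.8% of all tested genes. Wildtype library 2 or 3 was the highest wildtype library for 19 of 30 mitotic and 7 of 12 S-phase genes, and for 34.3% of all genes. Without these wildtype libraries none of the 42 genes passed, where 0.0673% of all genes passed as lower. The median log2 change was then -0.25 over the mitotic genes, with 25 of 30 negative (not the same 25), and -0.10 over the S-phase genes, with 7 of 12 negative. Top2a, Mki67 and Cenpe were then at -0.61, -0.49 and -0.47 (edgeR adjusted p = 0.23, 0.22 and 0.18). Smc2, Smc4, Rrm1, Ccne2 and Mcm4 were then at -0.23, -0.09, -0.18, -0.12 and -0.08.

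**Figure D4:**
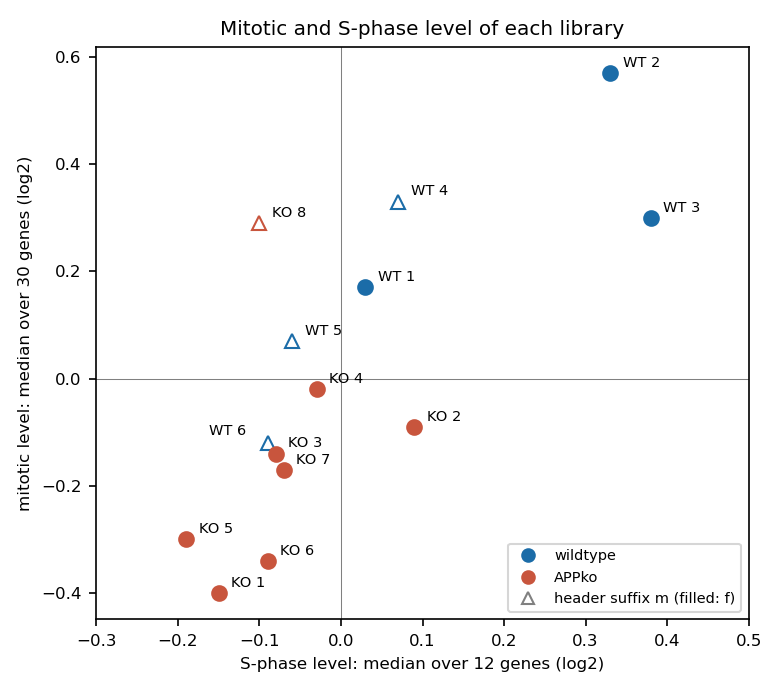
Each point is 1 library, with its S-phase level on the horizontal and its mitotic level on the vertical axis (medians over 12 and 30 genes of log2 CPM minus the gene's mean over 14 libraries); blue is wildtype, red APPko, filled circles carry header suffix f and open triangles m. Wildtype libraries 2 and 3 lie at the right, and APPko library 8 lies at a mitotic level of 0.29 with an S-phase level of -0.10.

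Because 7 of 8 APPko libraries carry f, the comparison was repeated within the f libraries, 3 wildtype against 7 APPko. 9 mitotic genes (Mki67, Top2a, Ccnb1, Cenpf, Cenpe, Nusap1, Cdca8, Mad2l1 and Smc2) and 5 S-phase genes (Mcm4, Pcna, Rrm1, Tyms and Ccne2) passed as lower in APPko, where 8.47% of all genes did. None passed as higher, against 7.1% of all genes. The medians were -0.55 over the mitotic and -0.41 over the S-phase genes. Top2a was at 19.4 ± 1.14 CPM in the wildtype f libraries and 8.71 ± 1.84 CPM in the APPko f libraries, a log2 change of -1.16 (edgeR adjusted p = 0.0012). Wildtype libraries 2 and 3 are both among these 3 f libraries, so their share in these calls and that of the suffix cannot be told apart.

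In the m libraries, 3 wildtype and 1 APPko, Top2a was at 12.6 ± 2.62 and 13.8 CPM, Mki67 at 12.0 ± 2.34 and 12.3 CPM, and Cenpe at 7.53 ± 1.38 and 5.89 CPM. The difference of the genotype change between the suffixes was tested as an interaction, in which a positive value means a higher APPko against wildtype ratio in m. It was positive for 26 of 30 mitotic genes, of which 11 had an unadjusted p under 0.05, against 8.55% of all genes in that direction. The median over the 42 genes was 0.56, against -0.10 over all genes. Tyms, thymidylate synthase, was the 1 gene that passed (1.31, SE 0.31, edgeR adjusted p = 0.041), where 1.86% of all genes passed in either direction. Tyms was at 19.6 ± 5.45 CPM in wildtype f, 12.3 ± 1.34 in APPko f, 10.6 ± 0.543 in wildtype m and 16.5 CPM in the single APPko m library. Top2a and Cenpf had interactions of 1.28 and 1.13 (edgeR adjusted p = 0.063 and 0.070). It was positive for 7 of 12 S-phase genes, with Pcna and Tyms at an unadjusted p under 0.05. The interaction rests on APPko library 8, so this library and the suffix cannot be told apart. Tyms lost the threshold with wildtype library 2, 3, 4 or 5 or APPko library 4, 5, 6 or 7 left out (edgeR adjusted p up to 0.092), and 10 of the 42 genes passed without wildtype library 1, where 18.1% of all genes did.

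Other genes of the cell cycle were taken from 5 lists of 86 genes, none of them among the 42, of which 82 could be tested. None passed in either direction by edgeR, with 9 lower and 9 higher at an unadjusted p under 0.05 (background 11.4% and 9.07%), and DESeq2 called 6, where it called 7.97% of all genes. The list of mitotic entry and checkpoint genes had 22 of 26 negative and a median of -0.22. Its smallest p belonged to Ect2, which activates RhoA at the cleavage site (2.75 ± 0.603 and 1.79 ± 0.3 CPM, log2 change -0.62, edgeR adjusted p = 0.069), and to the spindle protein Ckap2l (log2 change -0.64, edgeR adjusted p = 0.11). Replication licensing and fork genes had a median of -0.04 with 18 of 29 negative. Gins2, of the helicase's GINS cofactor, was at 0.41 and Pola1, the catalytic subunit of polymerase alpha, at -0.29 (edgeR adjusted p = 0.19 and 0.20).

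The G1 cyclins and their kinases, which act before S phase, had a median of 0.30 with 4 of 6 positive. Ccnd1 (cyclin D1) was at 29.0 ± 10.2 CPM in wildtype and 45.9 ± 10.3 CPM in APPko, a log2 change of 0.66 (edgeR adjusted p = 0.069). Cdk4, its kinase, was at 66.3 ± 15.8 and 89.6 ± 10.3 CPM, a log2 change of 0.43 (edgeR adjusted p = 0.080). Both had estimates opposite in sign to those of most mitotic genes, and neither passed in this fit. Both were called higher with DESeq2, with the suffix as a covariate and in f libraries alone (log2 change 0.88 and 0.67, edgeR adjusted p = 0.018 and 0.0071 in f), and were at 0.46 and 0.32 without wildtype libraries 2 and 3 (edgeR adjusted p = 0.33 and 0.30). Among the CDK inhibitors Cdkn1b (p27) was at -0.48 and Cdkn2c (p18) at 0.49 (edgeR adjusted p = 0.081 and 0.088), with a list median of 0.14. E2F and pocket protein genes had a median of -0.08, with Tfdp2 at 0.27 and E2f4 at 0.41 (edgeR adjusted p = 0.14 and 0.17).

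Marker genes of the cell types that could carry these transcripts were summed per library. Neural progenitor markers summed to 72.2 to 135 CPM in wildtype and 75.9 to 117 CPM in APPko with 0 of 7 called. Their members Hes5 and Eomes lay near 1 CPM. Sox2 and Nes were the highest of them, with wildtype means of 49.4 and 29.4 CPM, so the sum mostly follows these genes. Immature neuron markers (213 to 472 and 253 to 407 CPM, 0 of 6 called), oligodendrocyte precursor markers (98.1 to 152 and 86.2 to 149 CPM, 0 of 7) and astrocyte markers (4670 to 6710 and 4140 to 6450 CPM, 0 of 6) overlapped in the same way. Calb2 was the highest immature neuron marker, at 139 ± 89.1 CPM in wildtype and 141 ± 60.8 CPM in APPko. That sum hides changes of opposite sign, with 3 of the 6 negative. Dcx was at -0.30 and Igfbpl1 at 0.97 (edgeR adjusted p = 0.14 and 0.096). In the f libraries the oligodendrocyte precursor sums were 112 to 152 CPM in wildtype and 86.2 to 136 CPM in APPko. APPko library 8 was at 149 CPM, the highest of its group. Of these precursor markers Pdgfra alone passed in f (log2 change -0.5, edgeR adjusted p = 0.044), where 8.47% of all genes passed as lower. Its interaction was 1.05. Among the precursor markers C1ql1 alone had a positive change in f (1.2, edgeR adjusted p = 0.054) and a negative interaction (-0.7). The pattern of Pdgfra was not particular to precursors. The astrocyte marker Gja1 was at -0.99 in f (edgeR adjusted p = 0.0091), with an interaction of 0.99. Endothelial and pericyte markers summed to 105 to 198 and 80.6 to 143 CPM (0 of 6), with Cldn5 and Pecam1 near 1 CPM, and meningeal fibroblast markers to 29.1 to 99.6 and 45.0 to 79.9 CPM (0 of 6). Microglial markers summed to 256 to 572 CPM in wildtype and 470 to 779 CPM in APPko, with C1qb and Tyrobp of 8 called higher. C1qb, Tyrobp and C1qa averaged 123, 54.7 and 30.5 CPM in wildtype and 233, 115 and 70.3 CPM in APPko. The microglial markers Cx3cr1, P2ry12, Tmem119, Aif1 and Csf1r had log2 changes of -0.03, -0.26, 0.07, 0.08 and 0.29, and none of them was called. The granule cell markers called lower, of cells that no longer divide, were C1ql3, Rfx3 and Npy1r, and 7 of the 8 had negative changes. The part of these differences in the mitotic values was not tested.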

How the data were processed

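Per the labels' protocols, polyadenylated RNA of single dentate gyri was turned into cDNA with a low-input kit (12 cycles), 10 ng went into library preparation (10 cycles), and reads were paired, 151 bp each. 1 table of unnormalized counts per gene was deposited for each library. The submitters' processing notes name featureCounts 2.0.1, STAR 2.7.8a and cutadapt 3.5, with the build GRCm38. Whether counting used strand or kept multi-mapping reads is not stated there, and amplified reads without molecular identifiers are not independent molecules. Groups were taken from the titles.

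Genes were filtered by edgeR's filterByExpr (22150 kept) with TMM scaling. The genotypes were compared over all 14 libraries by edgeR's robust quasi-likelihood test, with no covariate. P-values were Benjamini-Hochberg adjusted over all tested genes, also for the genotype by suffix interaction, at a threshold of 0.05. Intervals are 95% intervals of the fitted log2 change. R 4.3.3, edgeR 4.0.16 and DESeq2 1.42.0 were used, and the fits were tested on simulated data. The genotype fit recovered 26.2% of simulated 1.5-fold, 68.8% of 2-fold and 100% of 4-fold changes. The interaction fit recovered 0%, 3.03% and 40.6% of them. Changes of the size described here can therefore be missed. Positions and exon lengths came from the gene annotation of the same build.

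The 42 genes, the other lists and the markers were chosen with earlier results of these data known. Values were given for genes past the threshold, the 5 mitotic and 3 S-phase genes with the smallest p, the 2 of each set with the highest level per length and the most positive of each set, with Tyms added after its values were seen. Of each other list the 2 genes with the smallest p were named. Alternatives were 2 other scalings, DESeq2, 2 other filters, the replicate number as a block, the suffix as a covariate, f libraries alone, the comparison without wildtype libraries 2 and 3, a GC trend removed by offset, and each library left out in turn.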

Additional observations from a re-analysis of the deposited data

Results flagged for a closer look

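Cenpf had 1 library far from the others in each genotype. Wildtype library 1 was at 18.1 CPM, and its gap to the next wildtype library was 0.71 of the group's range. APPko library 8, the m library, was at 12.9 CPM, with a gap of 0.60 of the range. 30 groups of libraries were examined in this way, over the genes given in full and the mitotic and S-phase levels. 2 of the 30 were marked, where chance alone would mark about 1 in 20. Tyms had an interaction of genotype and header suffix of 1.31 on the log2 scale (SE 0.31, edgeR adjusted p = 0.041). The m arm of APPko is library 8 alone, assumed to vary like the other libraries, so that library and the suffix cannot be told apart. The value was 0.81 without wildtype libraries 2 and 3 (edgeR adjusted p = 0.18).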

How the results depend on the processing

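The number of mitotic genes called lower (3) was 3 with either other scaling, 4 with the suffix as a covariate, 5 with DESeq2 and with a filter of at least 1 CPM in 6 libraries, 9 in f libraries alone, 1 with no filter, and 0 without wildtype libraries 2 and 3, with the GC trend removed and with the replicate block. It was 0 to 5 with each library left out. Of all genes, 3.29% were called lower with the suffix as a covariate, 4.64% with DESeq2, 2.32% with the 1 CPM filter and 8.47% in f libraries alone. That share was 0.344% with no filter, 0.0673% without wildtype libraries 2 and 3, 0.632% with the GC trend removed and 0.0511% with the block. S-phase genes called lower (0) were 1 with DESeq2, 1 with the suffix as a covariate, 5 in f libraries alone and 0 in the other settings, leave-one-out included. Genes called higher were 0 in every setting run. Other cell cycle genes called (0) were 6 with DESeq2 (7.97% of all genes), 2 with the suffix as a covariate (6.53%) and 8 in f libraries alone (15.6%). They were 0 to 5 with each library left out, 5 without wildtype library 4 (6.36% of all genes) and 1 without APPko library 3 (1.88%). Genes with an interaction (1) were 5 with DESeq2, 3 with no filter, 0 with at least 1 CPM in 6 libraries, 0 without wildtype libraries 2 and 3, and 0 to 10 with each library left out (10 without wildtype library 1, where 18.1% of all genes passed); without APPko library 8 no interaction could be fitted. The interaction passed for 7.96% of all genes with DESeq2, 1.87% with no filter and 1.21% with the 1 CPM filter. Without wildtype libraries 2 and 3 it passed for 0.101%. In the genotype comparison DESeq2 called more of all genes as well, 1028 lower and 737 higher. Without wildtype libraries 2 and 3 edgeR called 16 and 19. The cause of these changes was not tested.

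The median change over the mitotic genes kept its sign, at -0.55 to -0.25 over the settings and -0.42 to -0.25 with each library left out. That over the S-phase genes was -0.41 in f libraries alone, -0.10 without wildtype libraries 2 and 3, and -0.30 to -0.16 with each library left out. Without wildtype libraries 2 and 3 the log2 changes of Pcna and Tyms turned to 0.16 and 0.19 (edgeR adjusted p = 0.61 and 0.64). With each library left out Mki67 passed in 4 of 14 fits (edgeR adjusted p 0.032 to 0.12), Top2a in 4 (0.029 to 0.10) and Cenpe in 6 (0.023 to 0.088).

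Pairing was examined only by the replicate numbers of the titles: correlations of same-numbered libraries were 0.18, 0.05, -0.34, 0.19, 0.16 and 0.01, and 2 of 6 correlated best with their own number. Numbers 4 to 6 join a wildtype m to an APPko f library, and pairing by another numbering was not tested. With the title number as a replicate block over 12 libraries 0 of the 42 genes and 20 of all genes passed. Blocks 4 to 6 of that fit mix the suffixes in the same way. Low counts limit the mitotic regulators most, down to 2 counts for Plk1.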
